A study of Rattus norvegicus with 36 samples.

Results

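The 4 genes described here encode heat shock protein chaperones, namely *Hspa5* (ENSRNOG00000018294), *Hspa8* (ENSRNOG00000034066), *Hsph1* (ENSRNOG00000000902) and *Hspd1* (ENSRNOG00000014525). They were chosen by Ensembl identifier as chaperones relevant to a misfolded polyglutamine protein, and not by their counts. Earlier results of these data were known when the choice was made. All 4 are among the 23965 genes of the count table, and all 4 are among the 12657 genes that were tested, whose raw counts averaged 50 or more. Striatal polyA-enriched RNA of 36 male Sprague Dawley rats was sequenced, with 6 groups of 6 rats aged 2 months. Wildtype rats (WT) and their BACHD littermates (TG), which carry the full-length human mutant huntingtin gene with its own flanking regulatory sequence on a bacterial artificial chromosome, were raised in a standard environment (SE), an enriched environment (EE) or with maternal separation (MS, written ELS in the labels). In EE, rats lived after weaning in larger groups and cages with changing toys and objects. In MS, pups were taken from their mothers for part of each day before weaning and then housed as in SE. Whole litters were allocated to an environment and the labels do not name the litter, so litter and environment cannot be told apart. Total counts per library ranged from 9895073 to 19284439. By library number, the 36 libraries form 6 consecutive runs in which every group is present with 1 animal. In bulk tissue, fewer cells of a type and less RNA per cell cannot be told apart. The striatal identity of the samples and the level of the transgene were not analysed here, because the count table holds Ensembl identifiers without symbols.

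Chaperones bind unfolded stretches of other proteins, keep them from aggregating and help them to fold or to be degraded. Each of the 4 works in a known compartment. *Hspa8* encodes Hsc70, the constitutive Hsp70 of the cytosol, which also uncoats clathrin-coated vesicles and carries substrates to chaperone-mediated autophagy. *Hsph1* encodes Hsp105, an Hsp110 family member that exchanges the nucleotide of Hsp70 and takes part with it in pulling aggregates apart. *Hspa5* encodes BiP (GRP78), the Hsp70 of the endoplasmic reticulum (ER) and a sensor and target of the unfolded protein response. *Hspd1* encodes Hsp60, the chaperonin of the mitochondrial matrix. Cytosolic and mitochondrial chaperones are controlled by heat shock factors, which bind inverted repeats of the unit GAA, whereas ER chaperones are controlled through the ER stress response element. Polyglutamine huntingtin misfolds and aggregates, and Hsp70 and Hsp110 chaperones are known to act on such aggregates.

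The promoter windows of the 4 genes are shown because they carry the elements of these different control systems. Each window holds 250 bases before and 50 bases after the RefSeq transcript start on GRCr8, a different build from that of the counts, and is written on the strand of the gene. Capitals mark the heat shock element, searched on both strands as GAANNTTC or TTCNNGAA, or the ER stress response element, searched on both strands as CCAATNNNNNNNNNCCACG. The windows are chr3:38452766-38453065 (+) for *Hspa5*, chr8:50080264-50080563 (+) for *Hspa8*, chr12:10427118-10427417 (+) for *Hsph1* and chr9:64083988-64084287 (-) for *Hspd1*.
Hspa5: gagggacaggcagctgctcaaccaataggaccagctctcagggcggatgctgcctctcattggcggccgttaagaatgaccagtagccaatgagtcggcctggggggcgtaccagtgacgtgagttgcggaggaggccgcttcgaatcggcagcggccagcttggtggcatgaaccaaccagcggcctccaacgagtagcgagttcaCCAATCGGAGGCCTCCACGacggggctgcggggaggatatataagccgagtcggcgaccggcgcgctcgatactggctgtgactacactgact
Hspa8: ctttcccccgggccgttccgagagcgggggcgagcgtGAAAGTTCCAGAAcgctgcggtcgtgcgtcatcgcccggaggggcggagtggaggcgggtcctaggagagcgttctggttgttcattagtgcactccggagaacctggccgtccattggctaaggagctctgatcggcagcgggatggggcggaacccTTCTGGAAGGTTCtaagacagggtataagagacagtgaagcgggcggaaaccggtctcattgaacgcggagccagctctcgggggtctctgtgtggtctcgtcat
Hsph1: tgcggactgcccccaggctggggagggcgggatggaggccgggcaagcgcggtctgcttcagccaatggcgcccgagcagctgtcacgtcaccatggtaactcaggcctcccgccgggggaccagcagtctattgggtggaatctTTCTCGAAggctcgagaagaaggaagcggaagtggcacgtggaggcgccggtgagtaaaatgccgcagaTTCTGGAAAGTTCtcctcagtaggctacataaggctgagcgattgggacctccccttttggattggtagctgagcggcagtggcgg
Hspd1: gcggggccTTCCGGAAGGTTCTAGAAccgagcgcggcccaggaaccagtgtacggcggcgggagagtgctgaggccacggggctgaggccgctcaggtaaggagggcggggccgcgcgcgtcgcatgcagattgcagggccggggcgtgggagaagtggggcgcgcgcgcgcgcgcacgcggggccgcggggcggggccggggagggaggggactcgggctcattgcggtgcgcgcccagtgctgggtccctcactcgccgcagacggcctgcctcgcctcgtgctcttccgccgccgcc

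*Hspa5* was the member with an ER stress response element, beginning 43 bases before the transcript start, and its window held no match to the heat shock pairs. That element was present in 22 of 33469 windows of the same length (0.0657%). The windows of *Hspa8*, *Hsph1* and *Hspd1* all held the longer arrangement of 3 alternating units, GAANNTTCNNGAA or TTCNNGAANNTTC, whose matches overlap the pairs they contain. *Hspa8* had 2 such stretches, beginning 213 and 55 bases before the start. *Hsph1* had 1 beginning 36 bases before the start, with a separate pair 105 bases before it, and in *Hspd1* 2 overlapping matches began 242 and 237 bases before the start. The *Hspd1* window lies wholly within the annotated extent of the gene, unlike the other 3 windows. Of all 33469 windows, 0.798% held the arrangement of 3 units and 15.9% held a pair. A match describes the letters in this window and does not show binding. The annotated extents of *Hspd1* and its neighbour *Hspe1*, which encodes the co-chaperonin Hsp10, overlap (gap of -6 bases). *Snord14a* lies within *Hspa8*. The counting is not stated to use strand, so reads from overlapping genes cannot be told apart.

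The levels of the 4 chaperones overlapped between WT and TG animals and between the environments. Levels are given in CPM, that is counts scaled to a common library size with TMM normalization, as the lowest, the median and the highest of 6 animals, and are not compared between genes because gene lengths of this build were not used here. *Hspa8*, the cytosolic Hsp70, ranged from 1228 over 1516 to 1673 CPM in WT_SE and from 1387 over 1529 to 1683 CPM in TG_SE. In EE, it ranged from 1228 over 1529 to 1575 CPM in WT and from 1162 over 1412 to 1504 CPM in TG. After MS, it ranged from 1226 over 1327 to 1445 CPM in WT and from 1323 over 1444 to 1665 CPM in TG. No group of *Hspa8* was separate from another, and WT_MS had the lowest median. *Hsph1*, the Hsp110 partner, ranged from 323 over 405 to 444 CPM in WT_SE and from 410 over 437 to 500.2 CPM in TG_SE. In EE, it ranged from 352 over 390 to 458 CPM in WT and from 350.2 over 437 to 485 CPM in TG. After MS, it ranged from 334 over 390 to 439 CPM in WT and from 399 over 420.1 to 463 CPM in TG. The median of *Hsph1* was higher in TG in all 3 environments, with overlap in each.

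*Hspa5*, the ER chaperone, ranged from 251 over 334 to 465 CPM in WT_SE and from 226 over 331 to 368 CPM in TG_SE. In EE, it ranged from 240.4 over 335 to 370.3 CPM in WT and from 202 over 310.3 to 345 CPM in TG. After MS, it ranged from 218 over 241 to 295 CPM in WT and from 222 over 331 to 393 CPM in TG. The 5 medians other than that of WT_MS lay between 310.3 and 335 CPM, and WT_MS was low with a mean of 251 ± 31.6 CPM (SD, n = 6). *Hspd1*, the mitochondrial chaperonin, had group medians between 169.8 CPM in WT_MS and 182 CPM in WT_EE, and all 36 animals lay between 162 and 219 CPM. The order of the 6 group medians of *Hspd1* was WT_MS, TG_MS, WT_SE, TG_EE, TG_SE and WT_EE, with overlap between all neighbours.

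**Figure D1:**
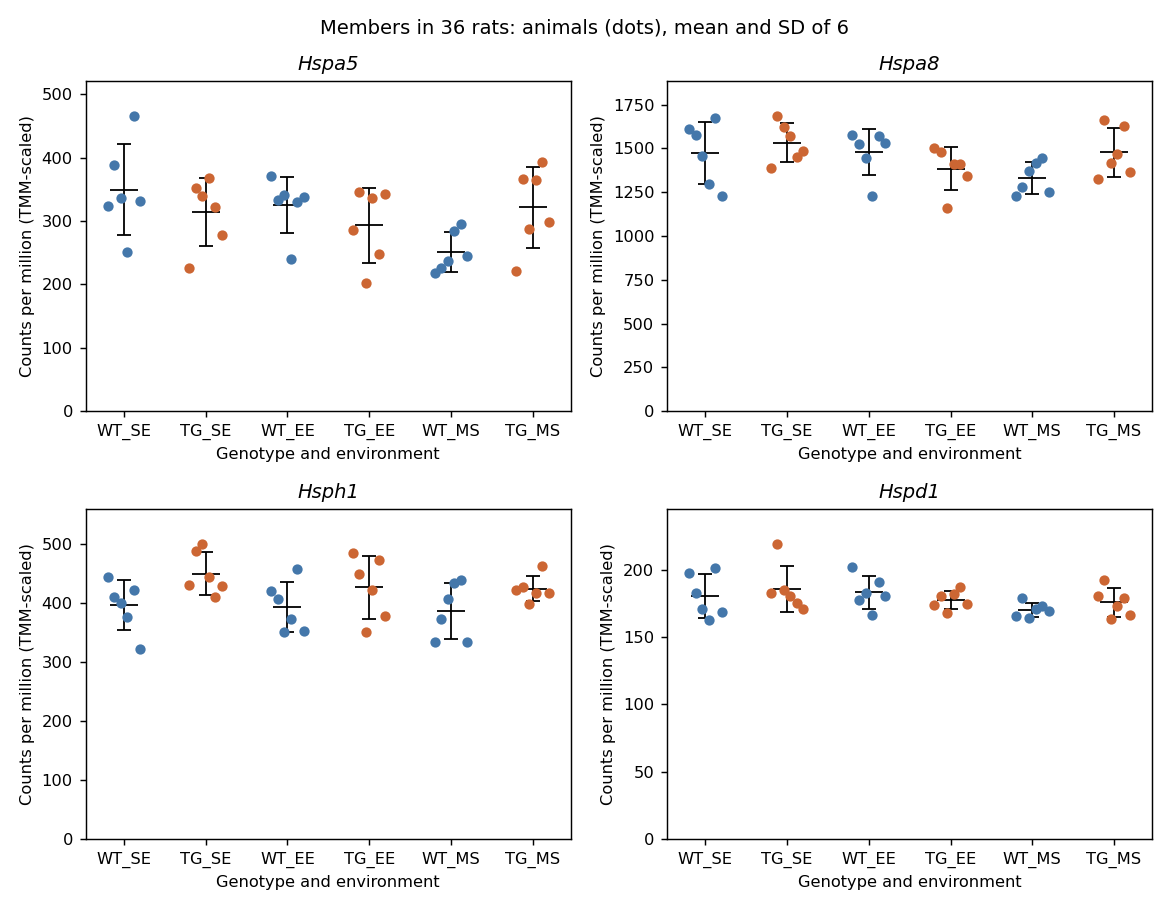
TMM-scaled CPM (vertical axis, from 0) of each chaperone in the 6 groups, with WT animals in blue and TG animals in orange, and the mean and SD of 6 animals in black. The groups overlap in every panel, and *Hspa5* in WT_MS has a mean of 251 ± 31.6 CPM, below the other group means of that panel.

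To assess the influence of the transgene, the environment and their interaction, counts were fitted with edgeR's quasi-likelihood test using 1 mean per group and 5 surrogate variables, and calls required a log2 fold change of 0.3 or more in either direction with a p of 0.1 or less after Benjamini-Hochberg adjustment. None of the 4 members was called in any of 12 comparisons, that is 0 of 48 member values. An unadjusted p under 0.05 was found for 5 of the 48 values with edgeR and for 5 with DESeq2 using the same surrogate variables, and all 5 were values of *Hsph1* in both. They came from TG/WT in MS and averaged, WT_EE/WT_SE, WT_MS/WT_SE and the interaction with MS, where 7.36, 15.3, 6.02, 6.14 and 4.20% of the tested genes had such a p in edgeR. Without surrogate variables, edgeR gave 6 member values such a p, and 9 with the runs of libraries as covariate. For *Hspa5*, those without surrogate variables were WT_MS/WT_SE, TG_MS/WT_MS, MS/SE averaged and the interaction with MS. For *Hsph1*, they were TG_SE/WT_SE and the TG/WT average. Which member had such values thus depended on the covariates. Calls were rare over all genes tested too. For TG/WT, 0.213% of the tested genes were called in SE, 0.411% in EE, 0.134% in MS and 0.577% in the average over the environments. For EE/SE, 0.00790% (1 gene) was called in the average over the genotypes. The remaining 7 comparisons called 0% of the genes, namely EE/SE within each genotype, MS/SE within each genotype and averaged, and both interactions, where edgeR gave 3.05 to 6.29% of genes a p below 0.05 before adjustment. With such shares, a count of 0 among 4 genes is near the background and is not a result about the members.

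Averaged over the environments, the TG/WT difference of *Hsph1* was the one with an interval that left out 0. It was 0.08 ± 0.03 on the log2 scale (SE; 95% confidence interval 0.01 to 0.15), with an unadjusted p of 0.0201 and an adjusted p of 0.21 in edgeR. The difference was -0.021 ± 0.039 for *Hspa8* (interval -0.10 to 0.059), -0.014 ± 0.085 for *Hspa5* (-0.19 to 0.16) and -0.021 ± 0.026 for *Hspd1* (-0.074 to 0.032). The sign of the last 3 values turned without surrogate variables. For all 4 members, these intervals left out changes of 0.3 in either direction. Over all genes tested, the median of this difference was 0.0012 and the median of its size 0.040, whereas the median over the 4 members was -0.017.

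The size of the *Hsph1* difference depended on the covariates. Without surrogate variables it was 0.15 ± 0.05, with an adjusted p of 0.164 in edgeR, and with the 6 runs of libraries as covariate 0.15 ± 0.04, with an adjusted p of 0.0537 in edgeR. With pairs of consecutive libraries as covariate, each a WT and a TG animal of the same environment, it was also 0.15, with an unadjusted p of 0.000495 and an adjusted p of 0.0312 in edgeR. The value stayed under the fold threshold of 0.3 under every alternative and with any animal left out. With surrogate variables, *Hsph1* differed between TG and WT by -0.019 ± 0.062 in SE, by 0.10 ± 0.06 in EE and by 0.16 ± 0.06 in MS, the last with an unadjusted p of 0.0124 and an adjusted p of 0.474 in edgeR. Without them the same differences were 0.19 ± 0.08, 0.12 ± 0.08 and 0.13 ± 0.08. Of these, the value in SE moved the most with the covariates.

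In WT rats, the fitted values of all 4 members were lower after MS, with and without surrogate variables, and none was called. Their median log2 fold change for WT_MS/WT_SE was -0.15, or -0.11 without surrogate variables, where the median over all genes tested was 0.00028 and -0.0011. The 4 members were measured in the same animals and varied together within groups, so their shared direction is not 4 separate observations. In TG_MS/TG_SE, the 4 values lay between 0.0031 and 0.091 with surrogate variables. Without them 3 of the 4 were lower in TG_MS as well (*Hspa8* -0.053, *Hsph1* -0.085, *Hspd1* -0.078) and *Hspa5* was at 0.034. The largest member value in a comparison of 2 groups was that of *Hspa5* in WT_MS/WT_SE. WT_MS lay below WT_SE by a log2 fold change of -0.32 ± 0.16 (95% confidence interval -0.66 to 0.013), that is 0.80 times its level, with an unadjusted p of 0.0593 and an adjusted p of 0.797 in edgeR. Without surrogate variables this was -0.48 ± 0.14, with an unadjusted p of 0.0019 and an adjusted p of 0.259 in edgeR. In MS, TG lay above WT by 0.22 ± 0.16, or by 0.36 ± 0.14 without surrogate variables, with adjusted p of 0.837 and 0.892 in edgeR. The interaction, that is the TG/WT difference in MS minus that in SE, was 0.41 ± 0.22 (-0.037 to 0.86) with an adjusted p of 0.999 in edgeR, and without surrogate variables 0.51 ± 0.20 (0.10 to 0.92) with an unadjusted p of 0.0154 and an adjusted p of 0.988. A difference between the genotypes in the response of *Hspa5* to MS was therefore not called, and its interval includes sizes above 0.3.

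*Hsph1* showed differences of WT_MS from WT_SE (-0.16 ± 0.06, unadjusted p = 0.0141 and adjusted p = 0.681 in edgeR) and of WT_EE from WT_SE (-0.12 ± 0.06, unadjusted p = 0.0427 and adjusted p = 0.816 in edgeR). These comparisons share the WT_SE animals. Without surrogate variables the values were -0.034 ± 0.083 and -0.0090 ± 0.083. The interaction of *Hsph1* with MS was 0.18 ± 0.08 with surrogate variables and -0.051 ± 0.12 without. The part of cell types and RNA quality in these values was not tested. For EE, the 8 member values within the genotypes lay between -0.12 and 0.051 with surrogate variables. In TG_EE/TG_SE, 2 of the 4 values were above 0 and 2 below with surrogate variables, whereas without them all 4 were below 0, between -0.15 for *Hspa8* and -0.066 for *Hspd1*.

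**Figure D2:**
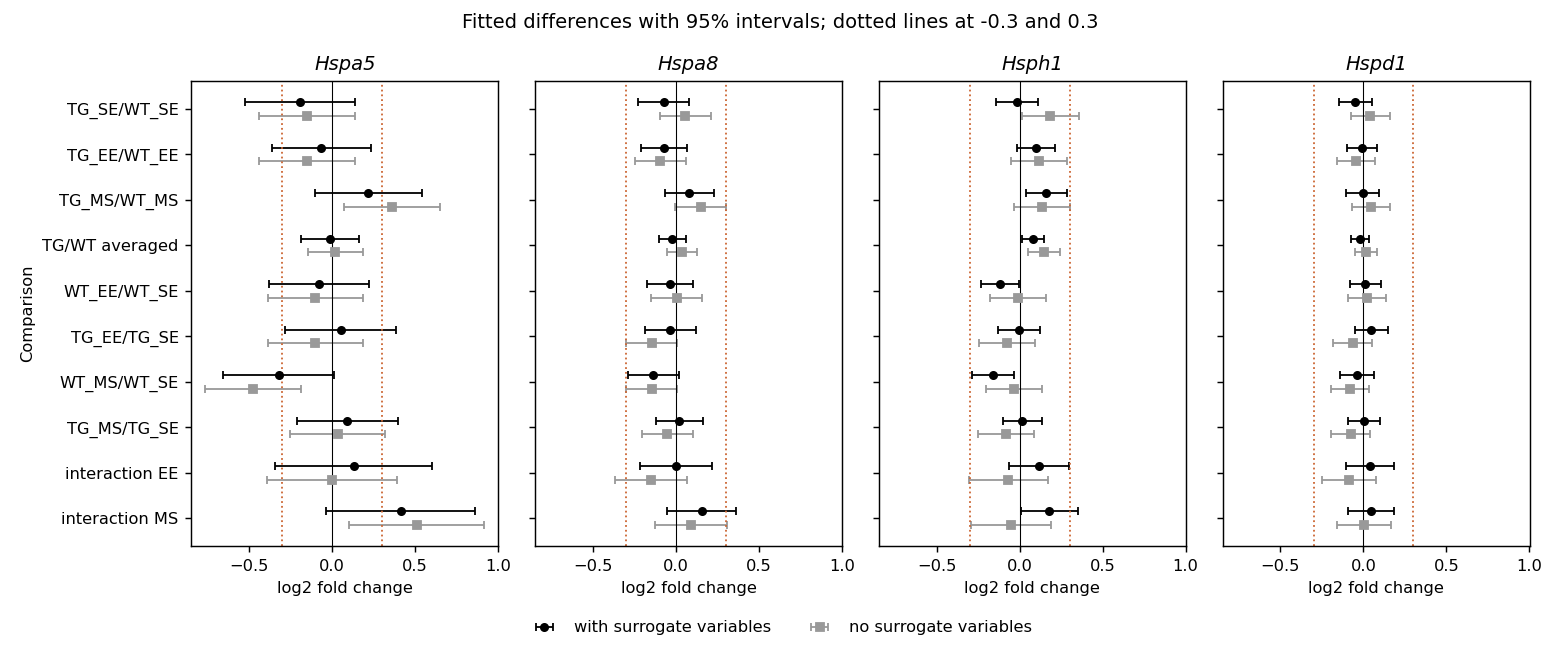
Log2 fold change (horizontal axis) with its 95% confidence interval for each chaperone in 10 comparisons (vertical axis), fitted with surrogate variables (black circles) and without (grey squares), with dotted lines at 0.3 in either direction. The *Hspa5* values for WT_MS/WT_SE are -0.32 and -0.48, and *Hsph1* in TG_SE/WT_SE moves from -0.019 to 0.19.

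The members differed in how much they varied between animals of a group. *Hspa5* had a within-group SD of 0.27 on the log2 CPM scale, larger than that of 89.2% of the tested genes and of 98% of the 500 genes with the most similar counts. The SD was 0.15 for *Hsph1*, 0.13 for *Hspa8* and 0.095 for *Hspd1*, where the median of the tested genes was 0.15. Among genes with the most similar counts, 70.2% of 486 had a smaller SD than *Hsph1*, 61.4% of 285 than *Hspa8* and 30.6% of 500 than *Hspd1*. For *Hspa8* and *Hsph1*, too few genes with higher counts were left to reach 500. With at least 2283 reads of *Hspa5* in each library, the counting error was at most 2.09%, against group coefficients of variation between 12.6 and 20.5%. In a regression of the group-centred values, the 5 surrogate variables accounted for 14.3% of the variance of *Hspa5*. The share was 29% for *Hspa8*, 53.7% for *Hsph1* and 41.1% for *Hspd1*, where the median of the tested genes was 39.7%. The surrogate variables were not centred by group, so these shares can understate their part within groups. The runs of 6 libraries accounted for 21, 26.8, 35.9 and 39.6% in *Hspa5*, *Hspa8*, *Hsph1* and *Hspd1*, with a median of 27%. With 36 animals, surrogate variables and runs both take up a share by chance, which was not estimated.

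Part of the *Hspa5* spread came from 5 animals that lay more than 0.4 below their group mean on the log2 scale, whereas the lowest of the other 31 animals lay 0.21 below it (-0.21). These animals were seen in the plotted values and are not a group of the study. They were 1 animal each of TG_SE (226 CPM), TG_MS (222 CPM), TG_EE (202 CPM), WT_EE (240.4 CPM) and WT_SE (251 CPM). Every group other than WT_MS held 1 by this measure, which is relative to the group mean. WT_MS was low as a group, with a median of 241 CPM, below the 251 CPM of the WT_SE animal. *Hspa8* was below its group mean in all 5, by log2 differences of -0.14, -0.15, -0.25, -0.26 and -0.17. *Hsph1* was below its group mean in all 5 as well, between -0.28 and -0.0045, and *Hspd1* in 4 of 5. As the 5 were picked by low *Hspa5*, these values restate the correlations over the same animals given below and are not a separate observation.

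**Figure D3:**
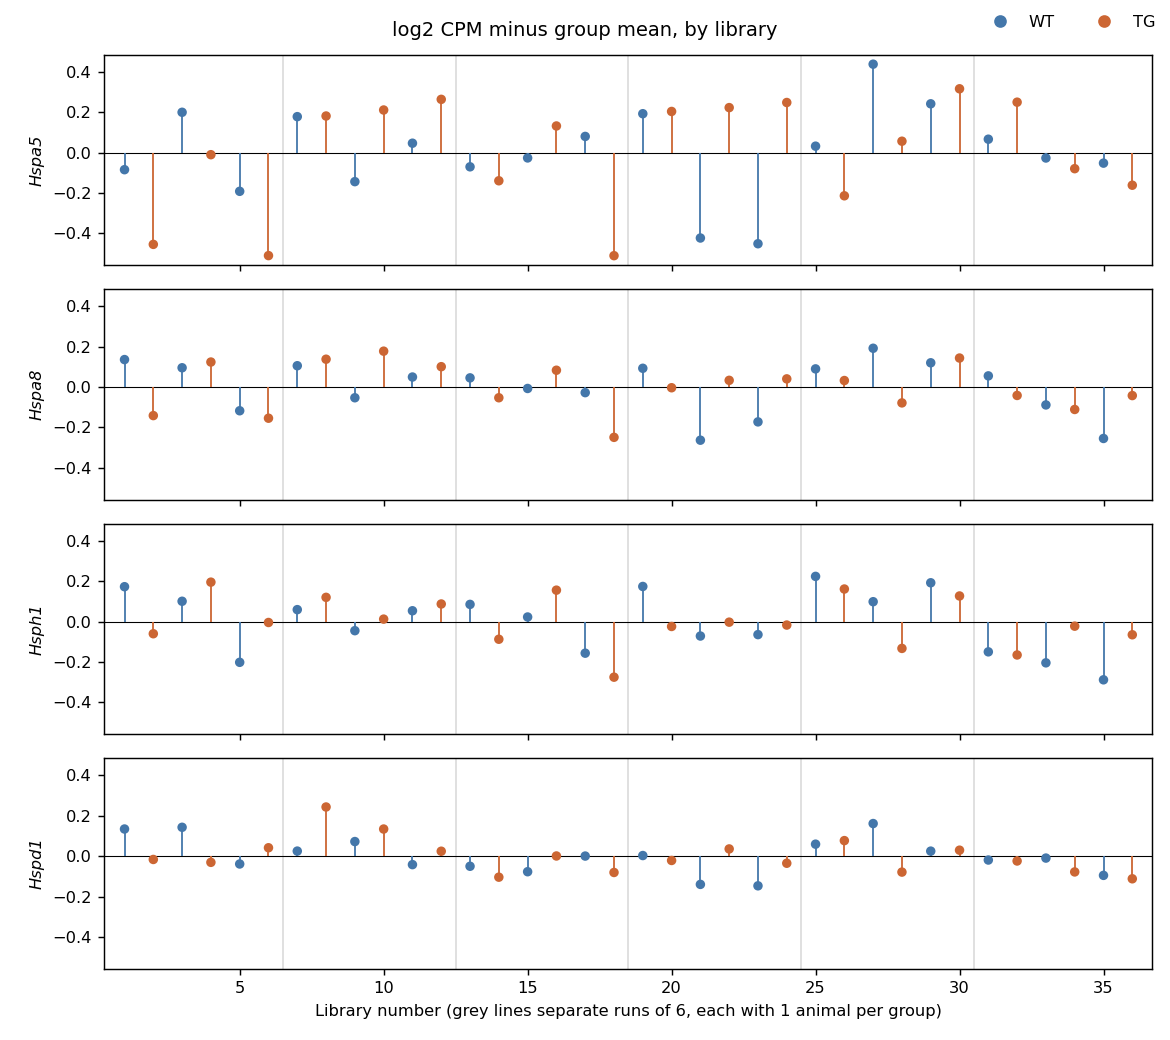
Log2 CPM minus the group mean (vertical axis) of the 4 chaperones in the 36 libraries by number (horizontal axis), with WT in blue, TG in orange and grey lines between runs of 6 libraries. The 5 points of *Hspa5* under -0.4 belong to 5 different groups, and *Hspa8* is below 0 in the same libraries.

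The 4 chaperones varied together between animals of the same group. Correlations were calculated on log2 CPM minus the group mean over 36 animals, with permutations within groups and adjustment over the 6 pairs. All permutation p given here treat the animals of a group as exchangeable. Some may be littermates, which the labels do not show, so these p do not allow for litter. *Hspa8* was correlated with *Hspa5* (Pearson r = 0.77, adjusted permutation p = 3e-05; Spearman rho = 0.71, adjusted p = 6e-05), with *Hsph1* (r = 0.76, adjusted permutation p = 3e-05; rho = 0.77, adjusted p = 6e-05) and with *Hspd1* (r = 0.69, adjusted permutation p = 0.00016; rho = 0.67, adjusted p = 0.00028). The raw permutation p of the pairs of *Hspa8* with *Hspa5* and *Hsph1* was 1e-05, the smallest that 100000 permutations can give. *Hsph1* and *Hspd1* had r = 0.52 (adjusted permutation p = 0.00118) and rho = 0.59 (adjusted p = 0.00039). For *Hspa5* with *Hspd1*, r was 0.47 (adjusted permutation p = 0.0118) and rho 0.43 (adjusted p = 0.0158). Its r with *Hsph1* was 0.38 (adjusted permutation p = 0.0315) and rho 0.36 (adjusted p = 0.0444). The 3 pairs with the cytosolic Hsp70 thus had the highest r of the 6, and differences between pairs were not tested.

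Leaving out the 2 animals farthest from the median of the gene on the x axis gave r of 0.72, 0.75 and 0.64 for the pairs of *Hspa8* with *Hspa5*, *Hsph1* and *Hspd1*, and 0.47 and 0.52 for *Hsph1* with *Hspd1* and *Hspa5* with *Hspd1*. The pair of *Hspa5* with *Hsph1* fell to 0.31 from 0.38, with a raw permutation p of 0.0899, and no longer passed 0.05. With the means of the runs of 6 libraries subtracted, r was 0.81, 0.73 and 0.59 for the 3 pairs of *Hspa8*, 0.37 for *Hsph1* with *Hspd1*, and 0.39 and 0.52 for *Hspa5* with *Hsph1* and *Hspd1*. Without the 5 animals of low *Hspa5*, r of *Hspa5* was 0.58 with *Hspa8*, 0.27 with *Hsph1* (raw permutation p = 0.167) and 0.41 with *Hspd1*. These 5 animals were chosen after seeing the data and by *Hspa5* itself. Leaving them out narrows the range of *Hspa5*, which can lower r by itself, so these values do not test the correlations. Within genotypes (18 animals each), *Hspa5* with *Hspa8* had r of 0.79 in WT and 0.77 in TG, and *Hspa8* with *Hsph1* had 0.76 and 0.77. *Hspa5* with *Hspd1* had 0.69 in WT and 0.29 in TG, and the difference between genotypes was not tested.

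**Figure D4:**
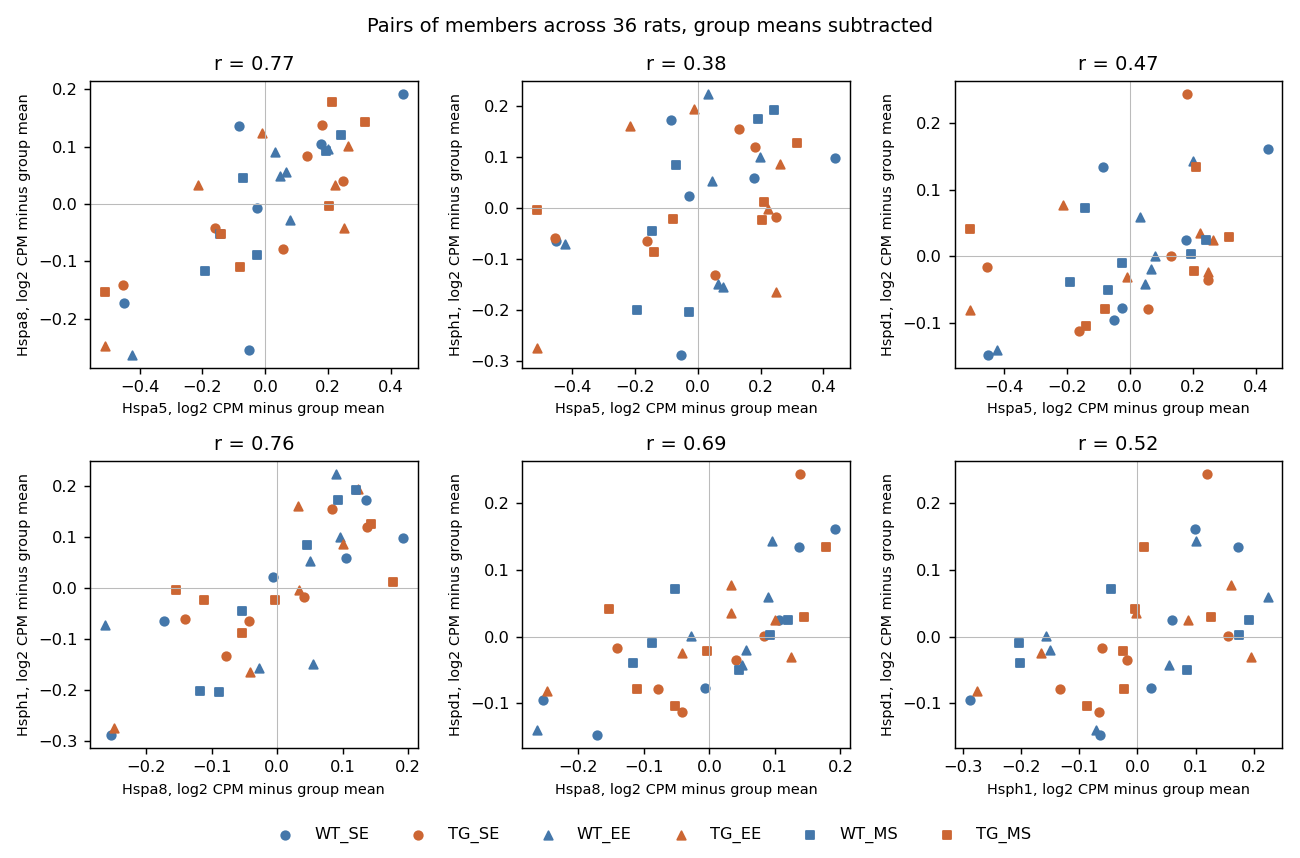
Log2 CPM minus the group mean for the 6 pairs of chaperones in 36 animals, with WT in blue, TG in orange, and circles, triangles and squares for SE, EE and MS. Pearson r above each panel is 0.77 for *Hspa5* with *Hspa8* and 0.38 for *Hspa5* with *Hsph1*, where the points scatter most.

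Set against all genes tested, the pairs with *Hspa8* ranked high. Among 12656 other genes, *Hspa5* ranked 16 and *Hsph1* ranked 18 by r with *Hspa8*, and *Hspd1* ranked 34. *Hspa8* ranked 11 by r with *Hsph1* and 27 by r with *Hspd1*. In contrast, *Hsph1* ranked 539 by r with *Hspa5*, and *Hspa5* ranked 1172 by r with *Hsph1*. *Hspd1* ranked 244 by r with *Hspa5* and 412 by r with *Hsph1*. By r with *Hspd1*, *Hspa5* ranked 476 and *Hsph1* ranked 251. Few genes had an r above 0.5 with a member, namely 1.40% of the tested genes for *Hspa5*, 1.80% for *Hspa8*, 2.57% for *Hspd1* and 3.87% for *Hsph1*. These ranks describe the same 36 libraries and carry no p.

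The genes most alike to each member were listed by Ensembl identifier, as the reference does not pair them with symbols. For *Hspa8* they were ENSRNOG00000032585 (r = 0.99), ENSRNOG00000030228 (r = 0.98) and ENSRNOG00000009920 (r = 0.98), with mean counts of 48.4, 34.4 and 67.9% of those of *Hspa8*. *Hspa8* has many processed copies in rodent genomes, and its counts are uncertain where reads were shared with copies, which was not tested for these 3 genes. For *Hspa5*, ENSRNOG00000003029 had r = 0.92, ENSRNOG00000001803 r = 0.86 and ENSRNOG00000006622 r = 0.82. For *Hsph1*, the values were 0.83 for ENSRNOG00000057221, 0.81 for ENSRNOG00000019834 and 0.80 for ENSRNOG00000011052. For *Hspd1*, they were 0.85 for ENSRNOG00000007219, 0.82 for ENSRNOG00000059714 and 0.81 for ENSRNOG00000007998.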

How the data were processed

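The authors checked reads with FastQC 0.11.4, aligned them with STAR 2.5.2b to the Ensembl rat genome extended by human *HTT*, and deposited raw counts per Ensembl gene, with DESeq2 1.16.1 among the tools named. The program that counted reads per gene is not given in the sources used here. Groups came from the genotype and environment of the labels. The 4 members, their symbols and all lists were chosen with earlier results of these data known. Genes with a mean count of at least 50 were tested in R 4.3.3 with edgeR 4.0.16, TMM, and 5 surrogate variables (sva 3.50.0, seed 1), called at adjusted p of at most 0.1 and absolute log2 fold change of at least 0.3. CPM on the log2 scale used a prior of 0.5. The alternatives were DESeq2 1.42.0, other covariates, filters and size factors, and each animal left out. The procedure was also run on simulated counts, and the outcome is not reported here. Libraries of a group differed by more than sampling noise, with a chi-square per degree of freedom between 5.04 and 34.3 over 90 pairs. Counting error alone limits single values to about 2%. The named genes are the 4 members and the 3 genes with the highest r to each. Lists of chaperone families, stress pathways and cell type markers, the tagwise dispersion and protein sequences were not analysed here, the lists because the reference table pairs 0 of its 47357 genes with an Ensembl identifier.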

Additional observations from a re-analysis of the deposited data

Results flagged for a closer look

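In 3 of the 24 sets of 6 animals (4 chaperones in 6 groups), the highest or the lowest animal stood apart by a gap above Dixon's 95% critical value. Chance gives about 1 in 20 sets. In WT_EE, the lowest animal had 240.4 CPM of *Hspa5*, where the next had 329.6 CPM (gap 0.69 of the range). The same animal was lowest for *Hspa8* in WT_EE with 1228 CPM (1228.5), where the next had 1446 CPM (gap 0.628, just above the critical value). In TG_SE, the highest animal had 219 CPM of *Hspd1*, where the next had 185 CPM (gap 0.71).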

How the results depend on the processing

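None of the 4 members was called under any alternative or with any of the 36 animals left out. Of the 13 fold changes given one by one, 79 of 108 values from alternatives kept their direction and 29 reversed, all from values that were not called. The cause was not tested. Over all 48 member values, 19 changed sign without surrogate variables, 19 with runs, 14 and 10 under the 2 filters, and 0 with the size factors of DESeq2 or with DESeq2 using the surrogate variables. Under the 2 filters, the surrogate variables were estimated anew, so the genes and the covariates changed together.

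The TG/WT averages of *Hspa5*, *Hspa8* and *Hspd1* reversed to 0.019, 0.037 and 0.014 without surrogate variables, to 0.012, 0.037 and 0.013 with runs, to 0.010, 0.038 and 0.014 with pairs of libraries, and to 0.018, 0.037 and 0.014 with DESeq2 without surrogate variables. With minimum counts of 10 and new surrogate variables they were 0.059, 0.038 and 0.028, and likewise with every gene 0.070, 0.041 and 0.035. *Hsph1* in TG_SE/WT_SE reversed to 0.19, 0.19, 0.19 and 0.18 under the same 4 covariate settings in order, to 0.029 and 0.016 under the 2 filters, and to 0.18 with only those groups. The *Hsph1* interaction with MS reversed to -0.051, -0.057, -0.048 and -0.050 in the same order. With 1 animal left out, the averages ranged from -0.062 to 0.039 for *Hspa5* and from -0.033 to 0.0091 for *Hspd1*, and *Hsph1* in TG_SE/WT_SE from -0.073 to 0.015. The *Hsph1* average ranged from 0.053 to 0.10, with an adjusted p between 0.0645 and 0.557 in edgeR, and the *Hspa5* WT_MS/WT_SE value from -0.44 to -0.25.

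The correlation of *Hspa5* with *Hsph1* fell to 0.31 without the 2 farthest animals and, chosen after seeing the data, to 0.27 without the 5 animals of low *Hspa5*. Both choices narrow the range of *Hspa5*, which can lower r by itself. With surrogate variables subtracted, also chosen after seeing the data, the 6 correlations ranged from 0.50 to 0.88.

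The counts of genes called moved by over 1.5 times as follows. For TG_SE/WT_SE (27), they were 83 without surrogate variables, 144 with runs, 112 with pairs, 118 with DESeq2 without surrogate variables and 13 with only those groups. For TG_EE/WT_EE (52), they were 21 without surrogate variables and 20 with only those groups. For TG_MS/WT_MS (17), they were 9 without surrogate variables and 30 with DESeq2 with or without them. For the TG/WT average (73), they were 112 and 137 under the 2 filters. For WT_EE/WT_SE (0), they were 2 and 1 with DESeq2 with and without surrogate variables and 5 with every gene. For TG_EE/TG_SE (0), they were 10 with DESeq2 without surrogate variables and 1 with every gene. For EE/SE averaged (1), they were 0 without surrogate variables or with runs, and 4 and 2 with DESeq2 with and without them. For WT_MS/WT_SE (0), they were 50 with runs and 62 with DESeq2 without surrogate variables. For TG_MS/TG_SE (0), 2 were called with every gene, and for MS/SE averaged (0) and the MS interaction (0), 1 each with DESeq2 without surrogate variables. For the EE interaction (0), they were 8 with runs, 12 with pairs, 19 with DESeq2 without surrogate variables and 1 with every gene. None of these added calls was a member.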

Other observations

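The relation of the members to sequencing depth was examined as group-centred log2 total count against log2 CPM in 36 animals, for 4 relations. *Hspd1* had Pearson r of -0.49 (permutation p = 0.0186, adjusted over the 4 relations 0.0746) and Spearman rho of -0.33 (permutation p = 0.0906, adjusted 0.362). Without the 2 animals farthest from the median depth its r was -0.33. The other members had r of -0.16 for *Hspa5*, -0.23 for *Hspa8* and -0.18 for *Hsph1*, with adjusted permutation p of 0.419 each.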
